A study of Mus musculus with 5 samples.

Results

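A set of 10 genes that tune the balance between epithelial and mesenchymal states is described here in MLE-15 cells with and without knockdown of Grhl2: Esrp1, Esrp2, Ovol1, Ovol2, Zeb1, Zeb2, Snai1, Snai2, Twist1 and Twist2. They were chosen by symbol, and each of the 10 had 1 probe set whose only platform symbol was its own, among 19937 genes with such a probe set. The array data came from 3 cultures with an shRNA against Grhl2 and 2 cultures with a non-silencing shRNA, each an independent lentiviral transduction of the same line. The line was grown out of mouse lung tumours made by SV40 large T antigen under a human surfactant protein C (SP-C) promoter, so both groups carry that oncogene. Both were also infected for 16 h with a GFP-marked lentivirus at a multiplicity of infection of 50 and selected for 6 days with 5 µg/ml puromycin. The dose of polybrene was likewise the same in both groups, at 5 µg/ml. A single Grhl2 hairpin was named in the labels, so its effects on Grhl2 and on other transcripts cannot be told apart. The series was made to find genes that Grhl2, a Grainyhead-like transcription factor of epithelia, controls in lung epithelium.

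Epithelial cells can lose their junctions and take on a migratory, mesenchymal form, a change called the epithelial to mesenchymal transition (EMT). Zeb, Snail and Twist proteins drive it by binding E-box motifs in epithelial genes and repressing them. Ovol zinc finger proteins hold the epithelial state by repressing Zeb1 and related genes, and Esrp proteins bind RNA and direct the splicing of epithelial exons. Grhl2 and ZEB1 repress each other's expression in human breast epithelial cells, and Grhl2 acts together with Ovol2 in mouse kidney epithelium.

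The miR-200 microRNAs close the circuit, since they pair with sites in Zeb1 and Zeb2 transcripts and Zeb proteins repress their genes. Their mature sequences, and that of miR-205, which also targets both Zeb transcripts, are shown because the seed that pairs with the target separates the family. They are RefSeq sequences of build GRCm38.p6, written 5′ to 3′, with the seed (bases 2 to 8) in capitals.
miR-200b-3p (chr4:156055685-156055706, minus strand): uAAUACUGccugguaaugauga
miR-200c-3p (chr6:124718324-124718346, minus strand): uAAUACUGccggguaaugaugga
miR-429-3p (chr4:156053916-156053937, minus strand): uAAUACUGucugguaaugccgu
miR-200a-3p (chr4:156054911-156054932, minus strand): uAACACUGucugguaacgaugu
miR-141-3p (chr6:124717917-124717938, minus strand): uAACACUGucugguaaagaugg
miR-205-5p (chr1:193507503-193507524, minus strand): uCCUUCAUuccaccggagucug
The sequences of miR-200b, miR-200c and miR-429 share the seed AAUACUG, and those of miR-200a and miR-141 share AACACUG, which differs at a single base.

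Values are RMA log2 signals as deposited, and a log2 fold change is the mean of the Grhl2 shRNA arrays minus the mean of the control arrays. Median signal was between 5.29 and 5.32 on all arrays. A gene was tested if its mean signal reached 4.22, the 25th percentile, which 9 of the 10 regulators and 14979 genes did. Snai2 did not reach it. The test was limma across all genes tested, and a gene passed at a Benjamini-Hochberg adjusted p under 0.05. Grhl2 itself (probe set 10423770) had log2 signals of 7.43, 7.43 and 7.60 on the Grhl2 shRNA arrays, against 7.77 and 7.68 on the control arrays. The groups did not overlap, but the log2 fold change of −0.24 (SE 0.07) missed the threshold (limma adjusted p = 0.082), and signal was 85.0% of the control (95% confidence interval 76.4 to 94.5%). Among the knockdown arrays, shRNA array 3 had the highest Grhl2 signal of its group.

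Epithelial markers of the line were present on all arrays. Cdh1, Epcam, Krt8 and Krt18 had mean signals of 10.0 to 12.1, and none of the 4 passed. Of 6 markers of alveolar type II cells, 5 reached the signal filter and none passed. Lamp3, the lysosomal marker of those cells, was below it. Among 14 markers on the table for fibroblasts, endothelium and leukocytes, 10 reached the filter and 1 passed: Dcn, the matrix proteoglycan decorin, had signals of 7.70, 8.10 and 8.22 with Grhl2 shRNA, against 7.36 and 7.25 in the control, a log2 fold change of 0.70 (limma adjusted p = 0.036). That call ended without any 1 array other than shRNA array 1, at log2 fold changes of 0.60 to 0.76. It also ended without the signal filter (limma adjusted p = 0.066) and with replicate number fitted as a block (limma adjusted p = 0.091). The summed signal of the 6 fibroblast markers was 8.72 to 8.98 on the Grhl2 shRNA arrays and 8.53 to 8.58 on the control arrays, on the log2 scale. The fibroblast markers Col1a1 and Col1a2 had log2 fold changes of −0.01 and −0.0002, and Col3a1 and Pdgfra of −0.07 each. Lum was below the filter at 2.17 in the Grhl2 shRNA group and 2.13 in the control group. Of the fibroblast markers that reached the filter, only Dcn had a value above 0. The part of the difference in summed fibroblast signal in the results on mesenchymal regulators was not tested.

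Of the 9 regulators tested, Esrp2 fell, none rose and 8 did not pass. That is 11.1% of those tested, against 6.38% of all genes, of which 3.52% were lower and 2.86% higher. The groups did not overlap in 6 of the 9, with 3 lower and 3 higher, against 41.5% of all genes (20.5% lower and 21.0% higher). An unadjusted p under 0.05 was found for Esrp2, Ovol1 and Ovol2, against 23.1% of all genes. The median log2 fold change of the 9 was 0.05, and that of all genes 0.0020. In RNA from whole cultures, fewer cells with a transcript and less transcript per cell cannot be told apart.

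**Figure D1:**
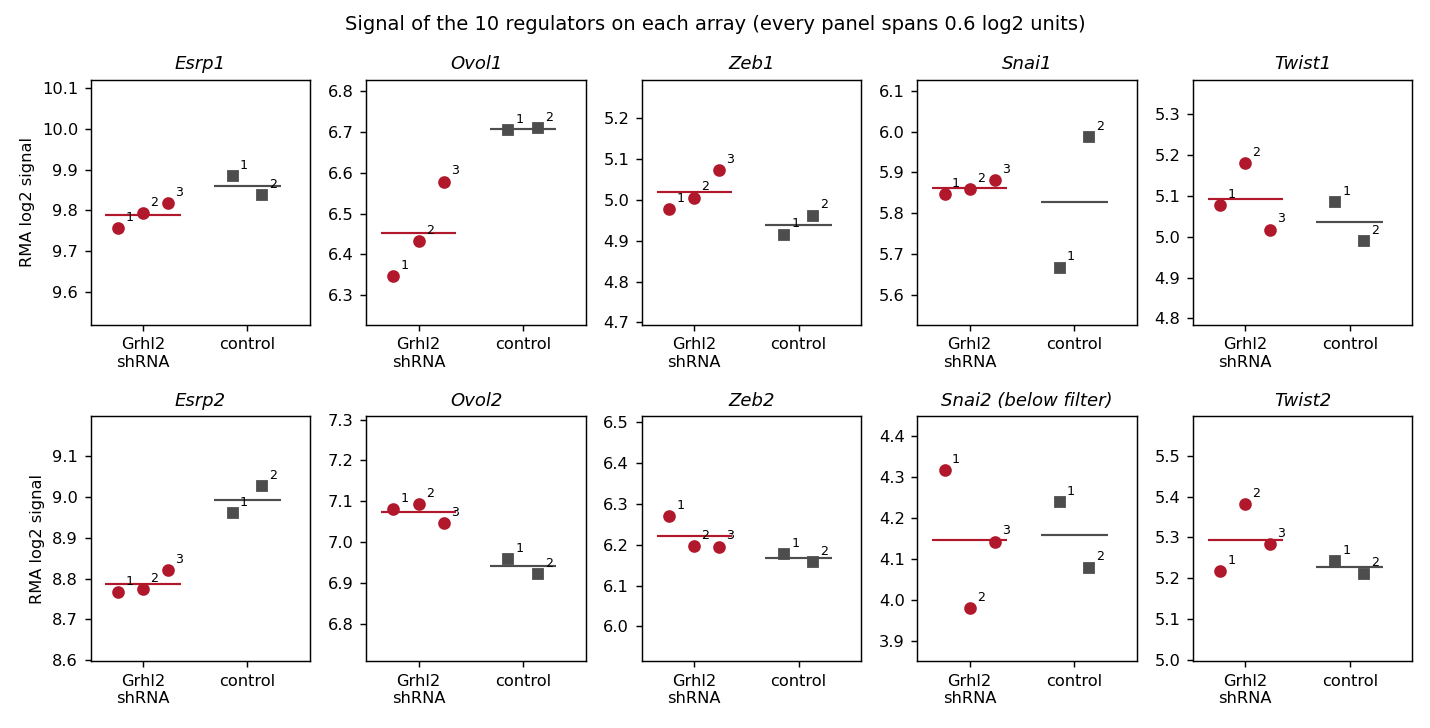
RMA log2 signal (y axis) of each of the 10 regulators on the 3 Grhl2 shRNA arrays (circles, left) and the 2 control arrays (squares, right), numbered by replicate, with the group mean as a line. The groups stand apart most clearly for Esrp2, at 8.77 to 8.82 on Grhl2 shRNA arrays and 8.96 to 9.03 on control arrays, and overlap for Snai1, Snai2, Twist1 and Twist2.

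Esrp2, an RNA-binding protein that promotes epithelial exon choice, was the regulator that fell. Its signals (probe set 10581455) were 8.77, 8.77 and 8.82 on the Grhl2 shRNA arrays, against 8.96 and 9.03 on the control arrays. All 3 Grhl2 shRNA values lay below both control values, and the gap between the groups, 0.14, was wider than the range within either group. Mean signal was 8.79 ± 0.03 (SD, n = 3) with Grhl2 shRNA and 8.99 ± 0.05 (SD, n = 2) in the control. The log2 fold change was −0.21 (SE 0.04, limma adjusted p = 0.043), or 86.7% of the control signal (95% confidence interval 80.6 to 93.2%). A change at least as large in either direction was found in 8.91% of all genes tested. The call was close to the threshold: leaving out any 1 of the 5 arrays ended it (limma adjusted p = 0.071 to 0.21), as did testing without the signal filter (adjusted p = 0.084) or centring each array again on its median (adjusted p = 0.058). The log2 fold change itself stayed between −0.24 and −0.17 over these settings.

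Esrp1, the paralogue with the same role in splicing, did not pass. Its signals (probe set 10511560) were 9.76, 9.79 and 9.82 on the Grhl2 shRNA arrays, against 9.88 and 9.84 on the control arrays. Although the groups did not overlap, the gap was 0.02, smaller than the range within either group. The log2 fold change was −0.07 (SE 0.04, limma adjusted p = 0.38), and its 95% confidence interval ran from 88.7 to 102% of the control signal. The log2 ratio of Esrp2 to Esrp1 within each array averaged −1.002 ± 0.016 with Grhl2 shRNA (SD, n = 3) and −0.87 ± 0.08 in the control (SD, n = 2), a difference of −0.13. Exact permutation of the arrays (10 assignments, two-sided) gave p = 0.1, the smallest it allows, and 0.25 after adjustment over the 5 paralogue pairs compared.

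The Ovol paralogues, zinc finger repressors of mesenchymal genes, had differences of opposite sign, and neither passed. Ovol1 (probe set 10465106) had signals of 6.35, 6.43 and 6.58 with Grhl2 shRNA, against 6.71 and 6.71 in the control. All 3 knockdown values were below the control values, but they spread over 0.23, and shRNA array 3, the knockdown array with the highest Grhl2 signal, was the nearest to the control. At −0.26 (SE 0.07, limma adjusted p = 0.078), its log2 fold change was the furthest from 0 of the 9, with an interval of 74.8 to 93.8% of the control signal. Without shRNA array 3 it was −0.32 (limma adjusted p = 0.039) and passed. Without any other array it did not (adjusted p = 0.14 to 0.27).

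Ovol2 (probe set 10488256), which represses Zeb1 and EMT genes in mouse epithelia, had signals of 7.08, 7.09 and 7.05 with Grhl2 shRNA, against 6.96 and 6.92 in the control. Every Grhl2 shRNA array was above both controls. Its log2 fold change was 0.13 (SE 0.04, limma adjusted p = 0.11), with an interval of 102 to 117% of the control signal, and it did not pass without any of the 5 arrays (adjusted p = 0.15 to 0.36). The log2 ratio of Ovol1 to Ovol2 within each array was −0.62 ± 0.14 with Grhl2 shRNA (SD, n = 3) and −0.23 ± 0.03 in the control (SD, n = 2), a difference of −0.39. The arrays of the groups did not overlap in this ratio, and exact permutation again gave the smallest possible p of 0.1, or 0.25 adjusted over the 5 pairs.

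**Figure D2:**
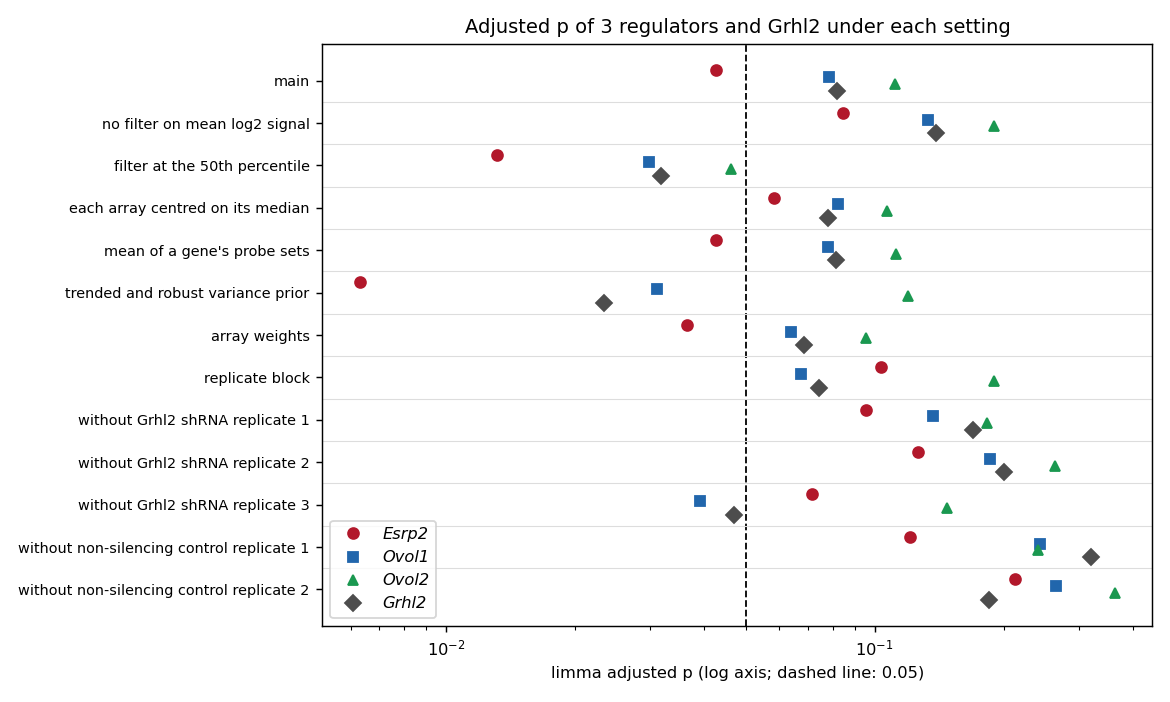
Limma adjusted p (x axis, log scale, dashed line at 0.05) of Esrp2, Ovol1, Ovol2 and Grhl2 as reported and under 12 other settings. Esrp2 lies below 0.05 as reported and in 4 of the 12, Ovol1 and Grhl2 in 3 each and Ovol2 in 1, and no Esrp2 value is below 0.05 with an array left out.

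Zeb1 and Zeb2, zinc finger and homeodomain repressors of Cdh1, showed small positive differences that did not pass. Zeb1 (probe set 10453678) had signals of 4.98, 5.01 and 5.07 with Grhl2 shRNA, against 4.92 and 4.96 in the control. The groups did not overlap, with a gap of 0.02. The log2 fold change was 0.08 (SE 0.05, limma adjusted p = 0.36), and its interval ran from 97.9 to 114% of the control signal. Zeb2 (probe set 10482448) had signals of 6.27, 6.20 and 6.20 with Grhl2 shRNA, against 6.18 and 6.16 in the control. Its groups did not overlap either, also with a gap of 0.02, but the log2 fold change was 0.05 (SE 0.04, limma adjusted p = 0.52) with an interval of 96.6 to 112%. Both intervals include the control level.

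Snai1, the zinc finger repressor Snail, could not be placed above or below the control, whose arrays lay on either side of the knockdown arrays. Its signals (probe set 10478884) were 5.85, 5.86 and 5.88 with Grhl2 shRNA, against 5.67 and 5.99 in the control. All 3 Grhl2 shRNA values lay between the control values, which were 0.32 apart, and the log2 fold change was 0.04 (SE 0.09, limma adjusted p = 0.86) with an interval of 88.8 to 118%. Its sign depended on the control array: leaving out control replicate 1 gave −0.13 (limma adjusted p = 0.31), and leaving out control replicate 2 gave 0.20 (limma adjusted p = 0.17). Snai2 (probe set 10433776), the related repressor Slug, was below the filter, with signals of 4.32, 3.98 and 4.14 with Grhl2 shRNA and 4.24 and 4.08 in the control. The groups overlapped, the log2 fold change was −0.01 (SE 0.10), and a limma fit over all 21640 single-symbol probe sets gave an adjusted p of 0.98.

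Twist1 and Twist2, basic helix-loop-helix factors that repress Cdh1, overlapped between the groups. Twist1 (probe set 10395320) had signals of 5.08, 5.18 and 5.02 with Grhl2 shRNA, against 5.08 and 4.99 in the control. Twist2 (probe set 10348632) had signals of 5.22, 5.38 and 5.28 with Grhl2 shRNA, against 5.24 and 5.21 in the control. In both genes shRNA array 2 was the highest of all arrays. Log2 fold changes of 0.06 and 0.07 did not pass (SE 0.06 each, limma adjusted p = 0.65 and 0.53), with intervals of 94.1 to 115% and 95.5 to 115% of the control signal. The within-array ratios of Zeb1 to Zeb2, Snai1 to Snai2 and Twist1 to Twist2 differed between the groups by 0.03, 0.05 and −0.01 on the log2 scale, with exact two-sided permutation p of 0.8, 0.8 and 0.9 (0.9 adjusted over the 5 pairs). Snai2 was below the signal filter, so the ratio of Snai1 to Snai2 rests on a dim probe set. Zeb1, Twist1 and Twist2 were dim as well, at signal percentiles 17.4, 19.0 and 22.6 of the genes tested. The Zeb and Twist ratios share this limit.

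**Figure D3:**
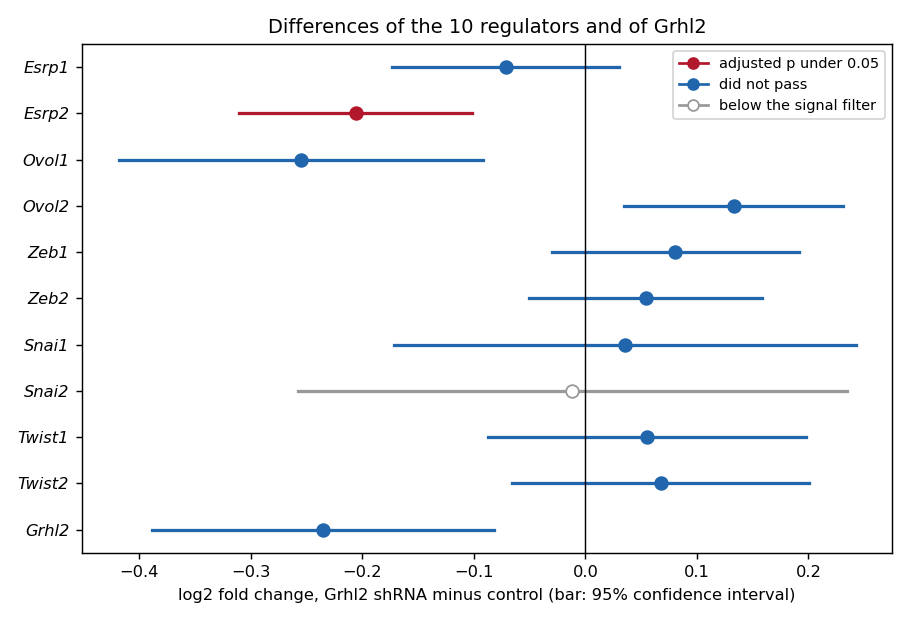
Log2 fold change (Grhl2 shRNA minus control, x axis) of the 10 regulators and of Grhl2, with 95% confidence intervals from limma as bars. Esrp2, at −0.21, is the regulator that passed the threshold. The intervals of Ovol1, Ovol2 and Grhl2 also leave out 0, although their adjusted p-values of 0.078, 0.11 and 0.082 missed the threshold, and those of Esrp1 and of the Zeb, Snai and Twist genes include 0.

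The array profile of Esrp2 was followed most closely by 3 genes among 13882 named genes, by the Euclidean distance between log2 values centred on each gene's mean over the 5 arrays. Tbc1d8, with a TBC domain of Rab GTPase regulators, was nearest at a distance of 0.014. Its signals were 7.80, 7.80 and 7.83 with Grhl2 shRNA, against 7.99 and 8.05 in the control. Cep162, a centriole and cilium protein, followed at 0.021 and Iglon5, a neuronal cell adhesion molecule, at 0.022. Their log2 fold changes were −0.20 and −0.21, and that of Tbc1d8 −0.21. Distances are over 5 arrays and are given as a description.

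Transcripts whose exons depend on Esrp proteins were read out only as whole genes, so exon inclusion was not measured. Of 12 such genes, Fgfr2 fell, none rose and 11 did not pass, where 3.52% of all genes fell and 2.86% rose. A value below 0 was found in 9 of the 12, against 49.1% of all genes. Fgfr2, a receptor whose alternative ligand-binding exons are the classic Esrp target, had signals of 7.83, 7.65 and 7.68 with Grhl2 shRNA, against 7.996 and 7.993 in the control. All Grhl2 shRNA values were lower, with a log2 fold change of −0.27 (SE 0.06, limma adjusted p = 0.044). The call ended without any 1 array other than shRNA array 1, at log2 fold changes of −0.28 to −0.24. It also ended without the signal filter (limma adjusted p = 0.083) and with replicate number fitted as a block (limma adjusted p = 0.11). Ctnnd1, the catenin p120 of adherens junctions, was next in size at −0.13 (limma adjusted p = 0.14). The median of the 12 was −0.05.

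No other splicing regulator passed, where 6.38% of all genes did, so a list this short could hold no call at that share. Of 14 tested, 10 had a value below 0, against 49.1% of all genes, and the median was −0.06. Ptbp1, a repressor of exons that binds pyrimidine tracts, was at −0.17 (limma adjusted p = 0.091), with signals of 11.06, 10.97 and 11.01 with Grhl2 shRNA, against 11.21 and 11.14 in the control. Celf2, which binds sequences rich in G and U, was at −0.13 (limma adjusted p = 0.11). The groups did not overlap in 8 of the 14, against 41.5% of all genes.

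Among 10 other transcription factors that promote EMT, 1 rose, 1 fell and 8 did not pass, with a median of 0.02. Of all genes, 2.86% rose and 3.52% fell. Sox9, a factor of lung bud progenitors that cooperates with Slug in mouse mammary cells, rose by 0.44 (SE 0.05, limma adjusted p = 0.0086), with signals of 9.32, 9.45 and 9.41 under Grhl2 shRNA, against 8.97 and 8.93 in the control. Foxq1, a forkhead factor, fell by 0.34 (SE 0.05, limma adjusted p = 0.013), with signals of 9.46, 9.43 and 9.50 under Grhl2 shRNA, against 9.76 and 9.84 in the control. The groups stood well apart in both genes. Both calls ended without control replicate 1 or 2, at log2 fold changes of 0.46 and 0.42 for Sox9 and −0.37 and −0.30 for Foxq1. They also ended with replicate number fitted as a block (limma adjusted p = 0.057 for Sox9 and 0.061 for Foxq1). Foxc2, Prrx1 and Klf8 were below the signal filter.

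Among 14 transcription factors of epithelial identity, Ehf fell, none rose and 13 did not pass, a share called near the 6.38% of all genes. Of the 14, 9 were below 0, against 49.1% of all genes, and the median was −0.03. Ehf, an epithelial ETS factor, had signals of 6.49, 6.92 and 7.11 with Grhl2 shRNA, against 7.49 and 7.66 in the control. All Grhl2 shRNA arrays were lower, array 3 the least, and the log2 fold change was −0.73 (SE 0.17, limma adjusted p = 0.049). The call ended without shRNA replicate 2 (limma adjusted p = 0.10), control replicate 1 (0.15) or control replicate 2 (0.23), with no filter (0.084) and with a trended and robust variance prior (0.071). Foxa1, a pioneer factor of lung epithelium, was next in size at −0.18 (limma adjusted p = 0.055), with signals of 10.02, 10.03 and 10.01 with Grhl2 shRNA, against 10.22 and 10.16 in the control.

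The regulators' partners showed no call. Of 4 Id genes, which encode inhibitors of basic helix-loop-helix factors such as Twist partners, none passed, against 6.38% of all genes, and all 4 were below 0, against 49.1% of all genes, with a median of −0.13. Id3 was at −0.17 (limma adjusted p = 0.19) and Id1 at −0.14 (limma adjusted p = 0.10). Of 11 corepressors and chromatin enzymes that work with Zeb and Snail factors, none passed, against 6.38% of all genes. Their median was 0.03. The LIM protein gene Ajuba was at −0.20 (limma adjusted p = 0.19) and Smarca4, the chromatin remodelling ATPase Brg1, at −0.16 (limma adjusted p = 0.077). Of 7 genes for the turnover of Snail protein, none passed, against the same share of all genes, with a median of −0.01. The phosphatase gene Ctdsp1 was at −0.11 (limma adjusted p = 0.29) and the F-box gene Fbxl5 at 0.07 (limma adjusted p = 0.46).

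Epithelial genes that Zeb and Snail factors are known to repress were mostly on the lower side, with small differences. Of 20 tested, Cldn4 fell, none rose and 19 did not pass, a share called no higher than the 6.38% of all genes. A value below 0 was found in 18 of the 20, against 49.1% of all genes. This list, like the others, was chosen with earlier results of these data known, so such counts are given as a description. Their median was −0.10, against 0.0020 for all genes, and the groups did not overlap in 13 of the 20, against 41.5% of all genes. Cldn4, a claudin of tight junctions, had signals of 6.46, 6.52 and 6.49 with Grhl2 shRNA, against 7.08 and 6.74 in the control. Every Grhl2 shRNA array was lower, but the control arrays differed by more than the Grhl2 shRNA arrays did: the log2 fold change was −0.42 (SE 0.09, limma adjusted p = 0.045) and shrank to −0.25 without control replicate 1 (adjusted p = 0.11). It also missed the threshold without any 1 of the shRNA arrays (limma adjusted p = 0.097 to 0.11). The same held without the signal filter (limma adjusted p = 0.082) and with replicate number fitted as a block (limma adjusted p = 0.11). Dsp, the desmosomal linker desmoplakin, was at −0.26 (limma adjusted p = 0.063). Cdh1, E-cadherin, the adherens junction target of Zeb, Snail and Twist factors, was at −0.07 (limma adjusted p = 0.32), and was singled out after its value was seen.

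The microRNA genes of the circuit showed no call, against 6.38% of all genes, and their probe sets were dim. Mir200a, with the seed AACACUG and named after its value was seen, had signals of 5.25, 5.29 and 5.402 with Grhl2 shRNA, against 5.24 and 5.35 in the control. Mir200b, with the seed AAUACUG, was at a log2 fold change of 0.08 (limma adjusted p = 0.41) and Mir200c, with the same seed, at −0.10 (limma adjusted p = 0.64). The groups overlapped in all 3, where they did not overlap in 41.5% of all genes. Mir141 and Mir205 were below the filter, and Mir429 shares its probe set with another symbol and is not given. These values are of the genes' probe sets, and the mature microRNAs were not measured.

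**Figure D4:**
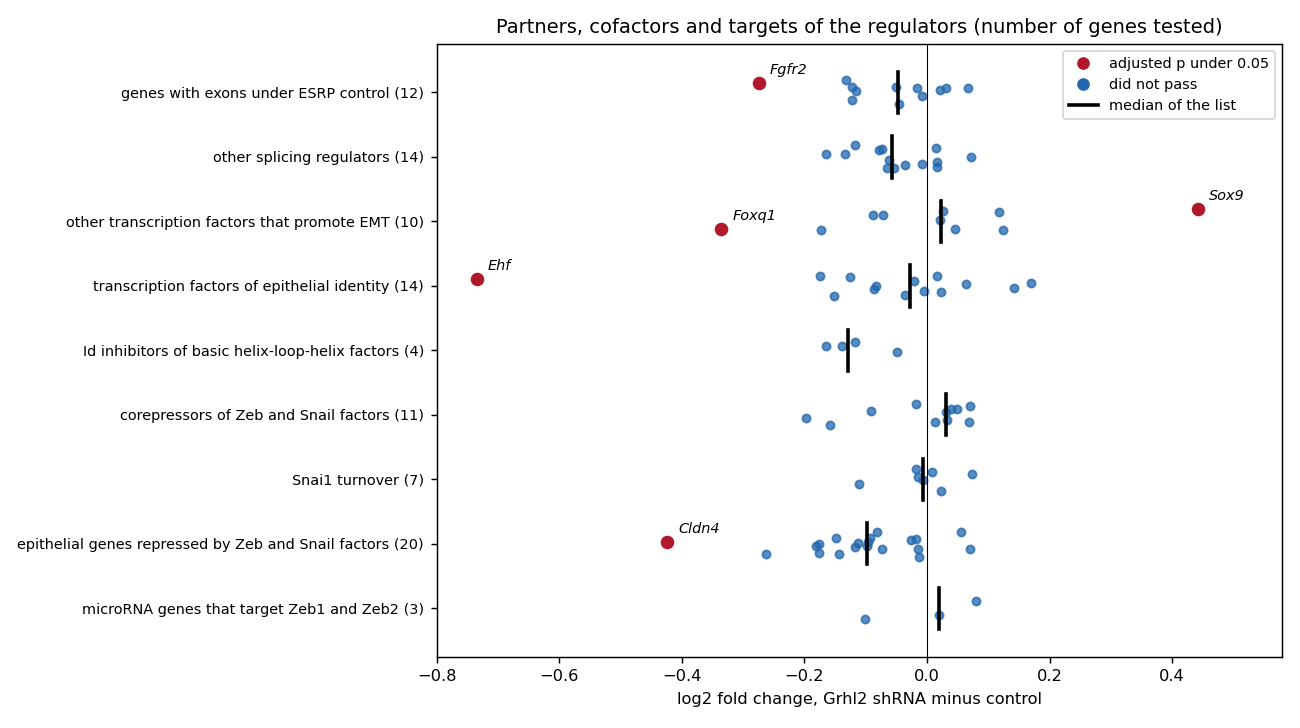
Log2 fold change (Grhl2 shRNA minus control, x axis) of each tested gene in 9 lists around the regulators, with the number tested beside each list. Red points passed the threshold and are named, blue points did not, and the black bar is the list's median. Ehf lies furthest left at −0.73 and Sox9 furthest right at 0.44.

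RefSeq promoter windows of build GRCm38.p6, from 250 bases before to 50 bases after a start, were at hand for 5 of the 10 regulators, with 8 windows in all: Ovol2, Zeb2 (4 starts), Snai1, Twist1 and Twist2. The consensus of Grainyhead-like factors was searched on both strands as AACCGGTT and as the looser AACNNGTT, which holds it. Neither form occurred in the 8 windows, and they occur in 0.146% and 4.20% of 32851 promoter windows of that length. The E-box of Zeb and Snail factors, CACCTG on either strand, occurred in 1 of the 8, that of Snai1, and occurs in 20.2% of all windows. A match is a description of letters and not of binding, and no match says only that these letters are not in these windows. The window of Snai1 is shown for its match, in capitals, which begins at −126 relative to the start, and that of Ovol2 because it is the regulator with the largest difference among the 5.
Snai1 (chr2:167537945-167538244, plus strand): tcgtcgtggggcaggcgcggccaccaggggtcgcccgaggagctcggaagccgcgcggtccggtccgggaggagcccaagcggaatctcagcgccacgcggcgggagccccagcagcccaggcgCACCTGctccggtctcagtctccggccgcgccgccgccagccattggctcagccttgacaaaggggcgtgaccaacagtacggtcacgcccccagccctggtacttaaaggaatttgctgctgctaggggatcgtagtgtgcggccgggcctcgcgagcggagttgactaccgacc
Ovol2 (chr2:144331313-144331612, minus strand): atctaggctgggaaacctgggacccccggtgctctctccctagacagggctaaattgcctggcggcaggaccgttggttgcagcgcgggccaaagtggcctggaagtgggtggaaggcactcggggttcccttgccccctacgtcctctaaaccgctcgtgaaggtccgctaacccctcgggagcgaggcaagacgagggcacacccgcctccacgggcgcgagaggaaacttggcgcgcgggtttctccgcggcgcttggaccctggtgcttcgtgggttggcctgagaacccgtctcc
Both windows were rich in G and C, at 70.0% for Snai1 and 65.7% for Ovol2.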

How the data were processed

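Total RNA (300 ng) from MLE-15 cells was hybridised to Affymetrix whole-transcript arrays, 1 sample per array. The authors deposited log2 signals; the submitters' processing notes name RMA and Affymetrix Expression Console. RMA subtracts background, equalises the distributions of the arrays and gives 1 value per probe set, and differences of dim probe sets can be understated. Their versions, filters and build were not found in the labels, and the log base was read from the method and the range of values. Of 34760 probe sets, 21640 have 1 platform symbol; only these were named. The filter at the 25th percentile of mean signal kept 16230, and the brightest probe set stood for a gene. The main test was limma 3.58.1 (lmFit, eBayes; R 4.3.3) between the groups, two-sided, with Benjamini-Hochberg adjustment over 14979 genes; each gene had 3 residual degrees of freedom, so that precision is limited by how many arrays there were. The labels call each sample an independent transduction, and these were the replicates. The script was checked on simulated data, where it recovered 17.3% of log2 changes of 0.25 and 89% of changes of 0.5. Most changes of the size seen in the regulators could therefore be missed. Within-array ratios of paralogues were compared by exact permutation.

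The regulators, the 9 lists and the marker lists were chosen with earlier results of these data known. From each list the text names the called genes (at most 6, by size) or, with fewer than 2 called, the 2 furthest from 0; for each called regulator the 3 nearest profiles were named, leaving out predicted genes, clones and small RNAs. Other settings covered the filter, centring, choice of probe set, variance prior, array weights, replicate number as a block, each array and the threshold. The same settings were added for called list genes after the data were seen.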

Additional observations from a re-analysis of the deposited data

How the results depend on the processing

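Of the 9 regulators tested, 1 was lower and 0 higher as reported. The count of lower regulators was 0 with no filter, with arrays centred on their medians and with the replicate block, and 2 with a 50th percentile filter, with a trended and robust variance prior and at an adjusted p under 0.10. With each array left out in turn it was 0 to 1, and the 1, without shRNA replicate 3, was Ovol1 and not Esrp2. The count of higher regulators was 1, Ovol2, with the filter at the 50th percentile, and 0 under every other setting run. Over all genes, 956 were called as reported, 418 with no filter, 1708 with the filter at the 50th percentile, 2034 with the trended and robust prior, 1851 at an adjusted p under 0.10, and 67 to 493 with an array left out. Fewer or more genes tested change the adjustment itself, and the cause of the other shifts was not tested. The log2 fold change of Grhl2, −0.24, passed under the 50th percentile filter (value −0.24, adjusted p = 0.032), with the trended and robust prior (−0.24, adjusted p = 0.023) and without shRNA replicate 3 (−0.29, adjusted p = 0.047), and was −0.29 to −0.19 with an array left out. Snai1 changed sign with the control array left out, and was −0.13 to 0.20. The other 8 tested regulators kept their sign under each setting that tested them, and the 50th percentile filter left out Zeb1, Snai1, Twist1 and Twist2.

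The replicate numbers are shared by 2 pairs of arrays only, and the deviations of same-numbered arrays from their group means correlated at 0.06 and 0.02 over genes, so the numbers were not taken as pairs. With the replicate block, which leaves shRNA array 3 without a partner and so out of the comparison, 172 genes were called and Esrp2 was at −0.22 (limma adjusted p = 0.10). Dim probe sets limit what can be seen for Snai2, for the microRNA genes, and for Zeb1, Twist1 and Twist2. Mean signals of Zeb1, Twist1 and Twist2 lay at percentiles 17.4, 19.0 and 22.6 of the genes tested. In all, 7 of the 9 regulators tested were below the median gene in signal.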

Other observations

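Among the Grhl2 shRNA arrays, array 3 had the highest signal of its group in 5 of the 9 tested regulators (Esrp1, Esrp2, Ovol1, Zeb1 and Snai1), as it had for Grhl2. It was the highest of the 3 in 30.2% of all genes tested. Array 3 was also the lowest of the 3 in 3 of the 9 regulators, against 37.1% of all genes. Array 1 was the lowest of the 3 in 6 of the 9 regulators and in 35.0% of all genes. Of the regulators highest on array 3, Esrp2 was called lower. The differences of Ovol1 (−0.26) and Zeb1 (0.08) had opposite signs, and neither passed. In any case, 3 arrays are too few to relate these values to the level of Grhl2.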
